A study of Mus musculus with 6 samples.

Results

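The ion and metal solute carriers are membrane proteins that move sodium, protons, chloride, bicarbonate, sulfate, phosphate, potassium, calcium, magnesium, iron, zinc and manganese across cell membranes. They were chosen by name, as every protein-coding mouse gene of the Slc4a, Slc8a, Slc9a, Slc11a, Slc12a, Slc20a, Slc24a, Slc26a, Slc30a, Slc34a, Slc39a, Slc40a and Slc41a families, and 82 of the 31227 genes in the count table met that rule. The rule uses no measured value. Bulk RNA-seq was done on organoids of mouse intestine, epithelial cultures that form hollow bodies and were kept in ENR medium (EGF, Noggin, R-spondin1). The 6 libraries formed 3 groups of 2. These were wild-type organoids (WT), Smad4-deficient organoids (labelled Smad4 KO) and Smad4-deficient organoids given TGF-β at 0.5 nM (labelled Smad4 KO+TGFb). Every sample is labelled 48 h, although the treatment text leaves room for 2 more days of TGF-β after the first 48 h. WT organoids with TGF-β were not analysed here. The labels give no strain, age, gut segment or clone number, and do not say how Smad4 was inactivated. Whether the replicates are separate cultures or animals is not stated, so each p-value measures only the spread between these libraries, which may be technical.

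The intestinal epithelium takes up and secretes salt through pairs of carriers that work side by side. At the apical, gut-facing membrane, sodium-proton exchangers of the Slc9 family and chloride-bicarbonate exchangers of the Slc26 family together absorb sodium chloride. At the basolateral membrane, the sodium-potassium-chloride cotransporter Slc12a2 and the sodium-bicarbonate cotransporter Slc4a4 load the cell with the anions that crypt cells secrete. Metals follow their own route. Slc11a2 brings ferrous iron in from the lumen and Slc40a1 (ferroportin) passes it on to the blood. Carriers of the Slc39 (ZIP) family bring zinc and other metals into the cytosol, and carriers of the Slc30 (ZnT) family move zinc out of it or into vesicles. SMAD4 is the transcription factor that TGF-β and BMP receptors reach through other SMADs.

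Libraries held 40.55 to 50.7 M units of estimated counts (M, 1e6), of which about 4 stood for 1 sequenced fragment. The carriers took 0.472 to 0.537% of them. Levels are given as CPM, counts per 1e6 units after TMM scaling. Differences are given as folds, with the log2 fold change ± its SE and edgeR's adjusted p in parentheses. Smad4 itself stood at 99.4 and 109 CPM in WT, then 21.7 and 23.1 in Smad4 KO, then 25.2 and 29.5 with TGF-β. Its RNA fell 4.67-fold in Smad4 KO (log2 -2.22 ± 0.10, edgeR adjusted p = 2.72e-05) but was still present, and which part of the gene was removed is not known. Epithelial markers were abundant in all libraries (8 genes, summed 7000 to 14300 CPM). Those of fibroblasts, endothelium and leukocytes summed to at most 0.479, 0.764 and 4.79 CPM, with Cdh5, Kdr, Emcn, Col1a2, Col3a1, Dcn and Lum at 0 throughout. Markers of epithelial cell types moved between the groups. Enterocyte markers (10 genes) summed to 3470 and 3500 CPM in WT, 11000 and 11100 in Smad4 KO and 6980 and 6960 with TGF-β. Crypt base stem cell markers (5 genes, leaving out the carrier Slc12a2) summed to 5270 and 5270, 2880 and 2880, and 1580 and 1560 CPM in the same order. Paneth cell markers (7 genes) summed to 7980 and 8010, 3130 and 3290, and 3250 and 3170 CPM. In bulk RNA, fewer cells of a type and less RNA per cell cannot be told apart, and the part of these shifts in the results on carriers was not tested.

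Of the 82 carriers, 67 had enough counts to be tested. The other 15 never exceeded 0.37 CPM in any library. Of these, 4 were at 0 in all 6: Slc4a1, the red-cell anion exchanger, Slc12a1, the kidney sodium-potassium-chloride cotransporter, Slc24a2, and Slc30a8, the zinc carrier of insulin granules. Levels of different genes are compared per kilobase of exon, as CPM per kb. In WT, 21 carriers reached 10 CPM per kb, 24 lay from 1 to under 10 and 37 lay under 1. Slc12a2 was the most abundant, at 141 ± 3.4 CPM per kb (SD, n = 2), followed by the iron importer Slc11a2 at 106 ± 0.82, and these did not overlap with each other or with any other carrier in WT. The ZIP carriers came next, with Slc39a5 at 49.8 ± 1 CPM per kb and Slc39a1 at 44.4 ± 0.33. Slc39a7 followed at 40.3 ± 2.4 CPM per kb, but 80.7% of its exon bases are shared on the same strand with the transcript Gm20427, so its level is uncertain.

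**Figure D1:**
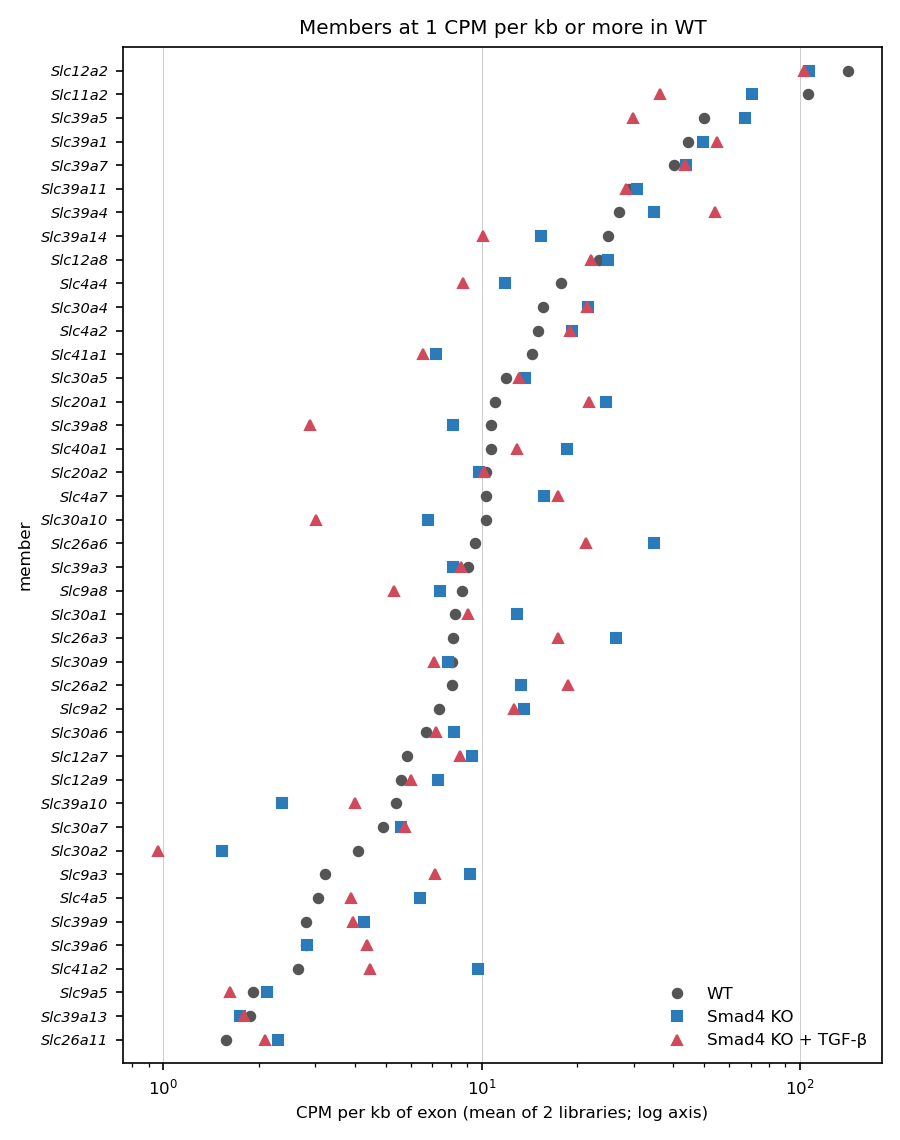
Mean level in CPM per kb of exon (log axis) of 42 carriers at 1 or more in WT, ordered by WT, with circles for WT, squares for Smad4 KO and triangles for TGF-β-treated Smad4 KO (means of 2 libraries each). Slc12a2 stands at the top in all 3 groups, the triangle of Slc11a2 lies well to the left of its circle, and the marks of most carriers in the middle of the list lie close together.

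A gene was called changed at a Benjamini-Hochberg adjusted p under 0.05 in edgeR's quasi-likelihood test over the 15503 genes tested. In Smad4 KO against WT, 24 of the 67 tested carriers were higher and 9 were lower, together 49.3%, where 30.3% of all genes tested were called, 16.9% higher and 13.4% lower. Scaled by library totals instead, 21 carriers were higher and 9 lower, while the balance over all genes turned, from 2620 higher and 2084 lower to 2125 higher and 2926 lower. With TGF-β against Smad4 KO, 7 were higher and 13 lower, together 29.9%, where 16.3% of all genes were called, 7.78% higher and 8.48% lower. In the TGF-β-treated group against WT, 25 were higher and 11 lower, together 53.7%, where 39.7% of all genes were called, 20.7% higher and 19.0% lower. The median log2 fold change of the tested carriers was 0.18, -0.12 and 0.11 in these comparisons, against -0.02, -0.01 and -0.02 over all genes. These shares and medians are descriptions, since no test compared the carriers with other genes, and the 3 comparisons share groups. With each library left out in turn, 29 of the 33, 14 of the 20 and 29 of the 36 calls passed in all 6 fits. The calls that did not are named below with their ranges, except those of carriers whose values are not given. Calls of more than 2-fold numbered 12 in Smad4 KO, 5 with TGF-β and 20 in the treated group against WT, where 7.9%, 4.13% and 13.0% of all genes passed and moved that far. The libraries of the groups compared did not overlap for 53, 47 and 54 of the 67 carriers, as for 66.7%, 56.9% and 72.3% of all genes tested.

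**Figure D2:**
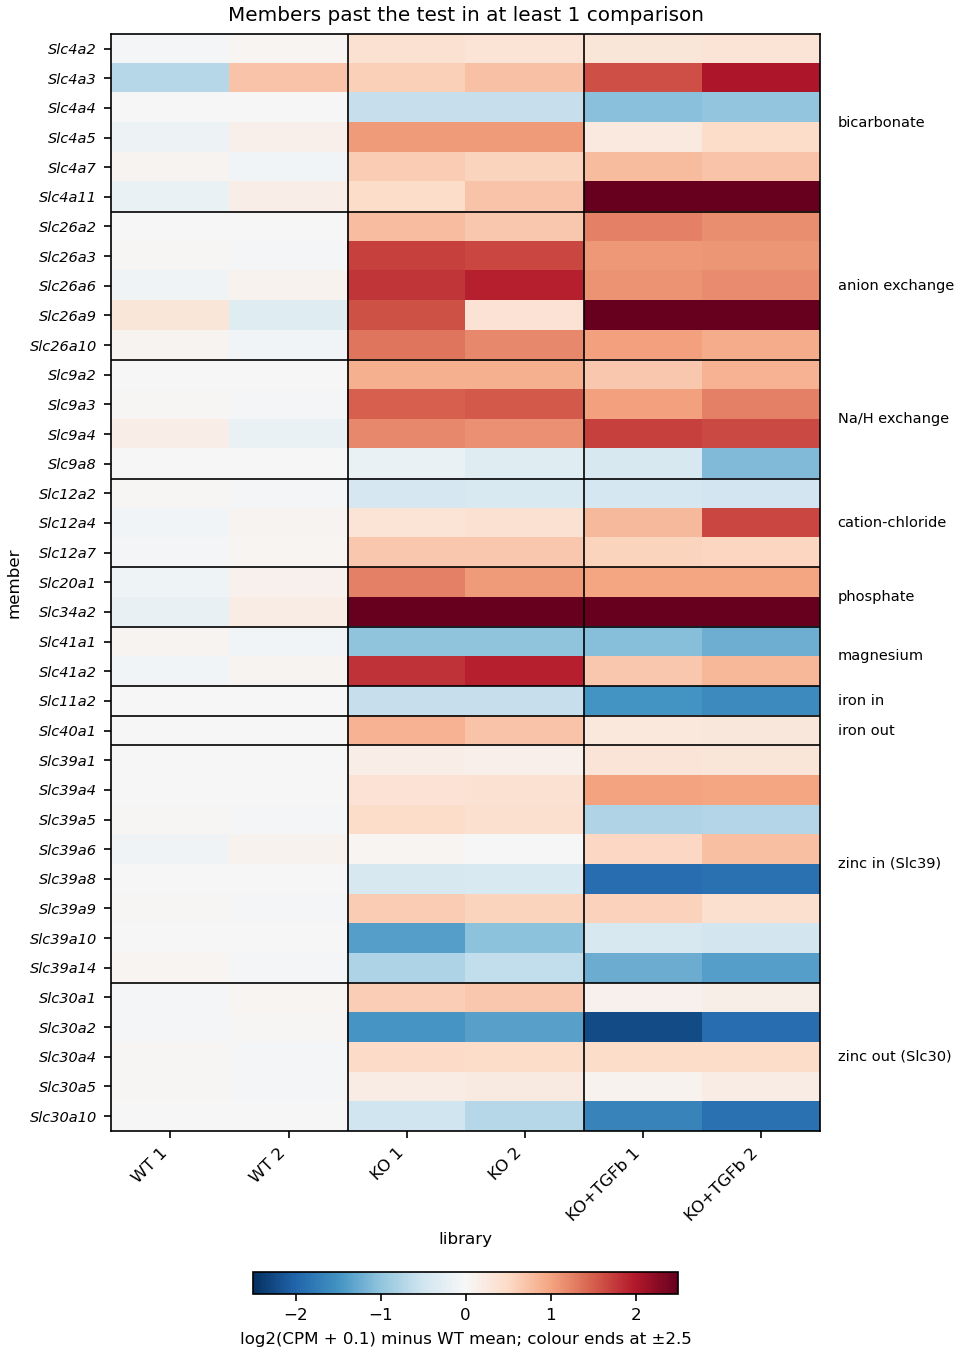
Each row is 1 of 37 carriers past the test in at least 1 comparison, grouped by what it carries, and each column is a library; colour is log2(CPM + 0.1) minus the mean of the WT libraries, with red higher and ending at ±2.5. The replicate columns look alike in most rows, the anion and sodium-proton exchangers are mainly red in both Smad4-deficient groups, and Slc11a2, Slc39a8, Slc39a14, Slc30a2 and Slc30a10 turn a deeper blue from Smad4 KO to TGF-β-treated Smad4 KO.

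Several carriers of apical salt absorption were higher in Smad4 KO. Of the tested genes, 4 of 8 sodium-proton exchangers and 4 of 9 anion exchangers rose and none fell. Over all genes tested, 16.9% were higher and 13.4% lower. The summed level of the Slc26 family went from 208.4 and 214.3 CPM in WT to 530.0 and 535.9 CPM in Smad4 KO. Slc9a3 (NHE3; ENSMUSG00000036123, chr13:74121457-74169442, plus strand), the main apical sodium-proton exchanger of small intestine and kidney, stood at 18 and 17.3 CPM in WT, then 49.9 and 51.3 in Smad4 KO, then 36.1 and 42.7 with TGF-β. Both WT libraries lay below all 4 Smad4-deficient ones, and the rise in Smad4 KO was 2.87-fold (log2 1.52 ± 0.10, edgeR adjusted p = 0.000138). Its value with TGF-β was 1.28-fold below that in Smad4 KO, which did not pass (log2 -0.36 ± 0.10, edgeR adjusted p = 0.059), although the libraries did not overlap and DESeq2 called it. Slc9a2 (NHE2), a second apical exchanger, stood at 51.1 and 51.5 CPM in WT, then 95.7 and 95 in Smad4 KO, then 82.2 and 93.6 with TGF-β. It rose 1.86-fold in Smad4 KO (log2 0.89 ± 0.08, edgeR adjusted p = 0.00034) and did not pass between the Smad4-deficient groups (log2 fold change -0.12). Slc9a4 (NHE4) rose 2.29-fold from a low level, 3.46 and 2.76 CPM, to 7.28 and 6.96 CPM (log2 1.19 ± 0.18, edgeR adjusted p = 0.00396). Its exons overlap by 16.7% with an opposite-strand transcript that counts without strand could not set apart.

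Slc26a3 (DRA; ENSMUSG00000001225, chr12:31390871-31473917, plus strand), the chloride-bicarbonate exchanger whose loss in humans causes congenital chloride diarrhoea, stood at 53 and 50.8 CPM in WT, then 171 and 166 in Smad4 KO, then 109.7 and 112 with TGF-β. All libraries of the 3 groups were separate, with WT lowest, treated Smad4 KO between and Smad4 KO highest. It rose 3.24-fold in Smad4 KO (log2 1.70 ± 0.05, edgeR adjusted p = 5.77e-06) and fell 1.52-fold with TGF-β (log2 -0.60 ± 0.05, edgeR adjusted p = 0.000744), staying 2.14-fold above WT (edgeR adjusted p = 2.19e-05). Slc26a6 (PAT1), which exchanges chloride for bicarbonate and oxalate at the small-intestinal brush border, followed the same order, at 48.6 and 54.6 CPM in WT, then 178 and 199 in Smad4 KO, then 113 and 117 with TGF-β. Its rise in Smad4 KO was 3.65-fold (log2 1.87 ± 0.08, edgeR adjusted p = 2.24e-05) and its fall with TGF-β 1.64-fold (log2 -0.72 ± 0.08, edgeR adjusted p = 0.00215). Enterocyte markers, given above, had the same order of groups. Slc26a2 (DTDST), a sulfate carrier needed to sulfate mucins and proteoglycans, differed in that it rose at both steps, at 99.3 and 100.1 CPM in WT, then 171 and 159 in Smad4 KO, then 240.0 and 222 with TGF-β. The first step was 1.65-fold (log2 0.73 ± 0.06, edgeR adjusted p = 0.00032) and the second 1.4-fold (log2 0.49 ± 0.06, edgeR adjusted p = 0.00302).

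Slc26a9, an epithelial chloride carrier and channel, was near the limit of detection, at 0.19 and 0.09 CPM in WT, then 0.61 and 0.2 in Smad4 KO, then 2.08 and 2.6 with TGF-β. In the main test it passed only in the treated group against WT (log2 4.01 ± 0.75, edgeR adjusted p = 0.00656). The WT libraries held 14 units in all, about 4 fragments, so the size of this fold is poorly known. With TGF-β against Smad4 KO it did not pass (edgeR adjusted p = 0.0559). DESeq2, no filter, the filter of 1 CPM in 2 libraries and values divided by 4 did call it there. Slc26a10 rose from 0.86 and 0.78 CPM to 2.21 and 2.01 CPM (log2 1.36 ± 0.34, edgeR adjusted p = 0.0267). This call was lost when any WT or Smad4 KO library was left out (edgeR adjusted p 0.0677 to 0.1). Its call against WT in the treated group was lost without any of the 6 (0.0714 to 0.151), and 17.8% of its exon bases overlap B4galnt1 on the other strand. Slc9a8 (NHE8), found in apical membrane and Golgi, stood at 79.4 and 78.5 CPM in WT, then 70.3 and 63.9 in Smad4 KO, then 59.5 and 36.9 with TGF-β, with the treated libraries far apart. It was lower in the treated group against WT (log2 -0.71 ± 0.20, edgeR adjusted p = 0.0338), a call that was lost without either WT or either Smad4 KO library (edgeR adjusted p 0.00118 to 0.114 over the 6 fits).

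A list of 16 genes, chosen for what they do, held scaffolds and regulators of ion carriers, kinases of the Slc12 cotransporters among them. It gave 5 higher and 3 lower in Smad4 KO, and 2 higher and 4 lower with TGF-β. The 3 lower in Smad4 KO were Ahcyl1 and the kinase genes Stk39 and Wnk2, given below. All genes gave 16.9 and 13.4% in Smad4 KO, and 7.78 and 8.48% with TGF-β, so that several of these counts lie near the background. Slc9a3r1 (NHERF1), which holds Slc9a3 and other apical carriers under the membrane, stood at 203 and 205 CPM in WT, then 378 and 393 in Smad4 KO, then 402 and 377 with TGF-β, a 1.89-fold rise in Smad4 KO (log2 0.92 ± 0.04, edgeR adjusted p = 3.17e-05) with no call between the Smad4-deficient groups. Chp2, a calcineurin-like protein that binds sodium-proton exchangers, rose 6.49-fold, from 22.1 and 20.2 CPM to 135 and 139 CPM (log2 2.70 ± 0.07, edgeR adjusted p = 2.39e-06). Pdzk1, another brush-border scaffold, rose 1.86-fold (log2 0.90 ± 0.14, edgeR adjusted p = 0.00452) and fell 1.95-fold with TGF-β (log2 -0.96 ± 0.14, edgeR adjusted p = 0.00599). Its treated libraries, at 6.36 and 6.13 CPM, lay near the WT values of 6.36 and 6.69 CPM.

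**Figure D3:**
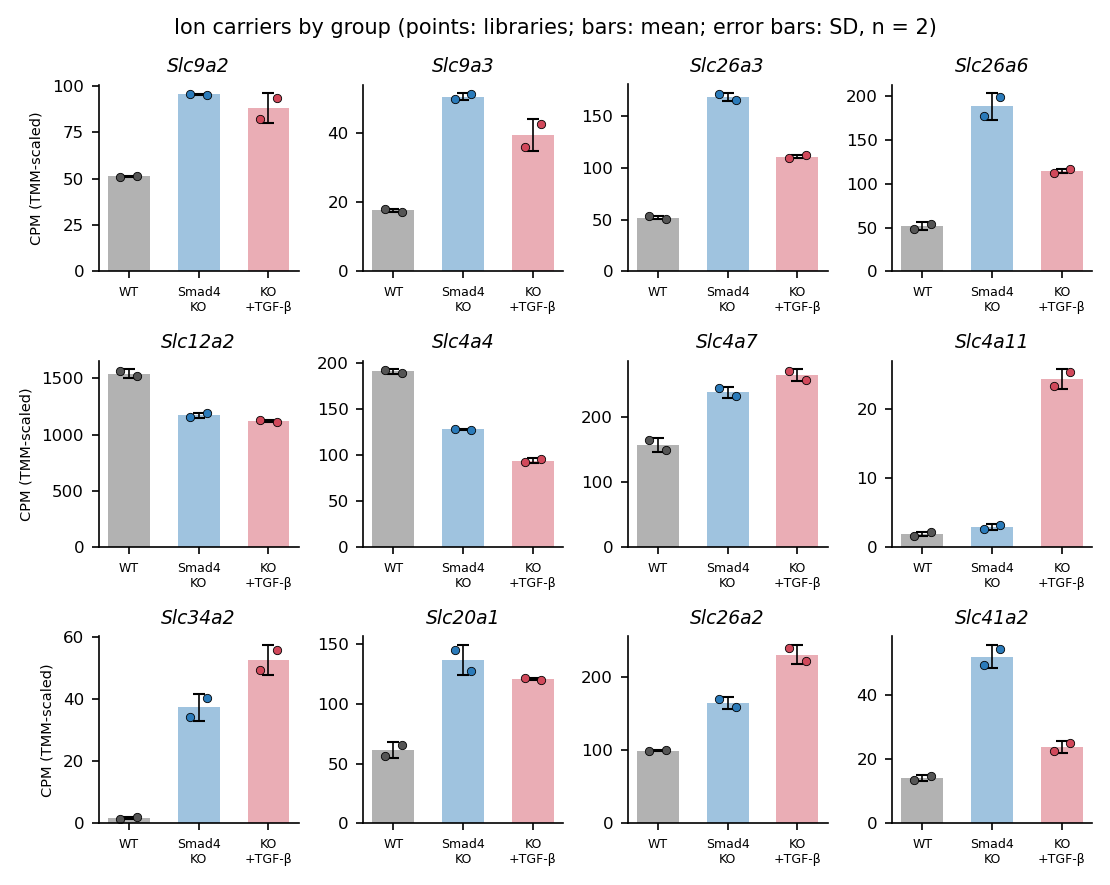
TMM-scaled CPM (linear axis from 0, scaled per panel) of 12 ion carriers, with points for the 2 libraries, bars for the mean and error bars for the SD. Slc9a3, Slc26a3, Slc26a6 and Slc41a2 stand highest in Smad4 KO, Slc34a2, Slc4a11 and Slc26a2 stand highest with TGF-β, and Slc12a2 and Slc4a4 stand highest in WT.

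The basolateral loading carriers Slc12a2 and Slc4a4 were lower in Smad4 KO. Slc12a2 (NKCC1), the cotransporter that supplies chloride for secretion and is itself used as a marker of crypt cells, stood at 1569 and 1517 CPM in WT, then 1157 and 1189.7 in Smad4 KO, then 1131 and 1115 with TGF-β. The WT libraries lay above the other 4, and the difference in Smad4 KO was 1.32-fold (log2 -0.40 ± 0.03, edgeR adjusted p = 0.000116), with no call for TGF-β (log2 fold change -0.06). Crypt base stem cell markers other than Slc12a2 fell as well, 5 of 5 in Smad4 KO and 4 of 5 with TGF-β. Slc4a4 (NBCe1; ENSMUSG00000060961, chr5:88886818-89239653, plus strand), which brings in bicarbonate with sodium, fell at both steps, from 193 and 189.6 CPM in WT, then 128 and 128 in Smad4 KO, then 92.6 and 96.1 with TGF-β. Its falls were 1.49-fold (log2 -0.58 ± 0.05, edgeR adjusted p = 0.000322) and 1.36-fold (log2 -0.44 ± 0.05, edgeR adjusted p = 0.00181), and no libraries of different groups overlapped.

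A potassium-chloride cotransporter, of the carriers that let chloride and potassium leave the cell, went the other way. Slc12a7 (KCC4) stood at 71.2 and 76.2 CPM in WT, then 118 and 118 in Smad4 KO, then 109 and 108 with TGF-β, a 1.6-fold rise in Smad4 KO (log2 0.68 ± 0.06, edgeR adjusted p = 0.000317). Slc12a4 (KCC1) was low, at 1.87 and 2.08 CPM in WT, then 2.52 and 2.6 in Smad4 KO, then 3.52 and 6.5 with TGF-β, and its call against WT in the treated group (log2 1.34 ± 0.34, edgeR adjusted p = 0.0217) was lost without either WT library or treated replicate 2 (edgeR adjusted p up to 0.116).

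A list of 16 genes, drawn up around the chloride and potassium channels of secretion, also held Clcn3, Clcn4, Clcn5, Clca1 and Clca4b. These are not established as channels of secretion. Of the list, 14 genes were tested, and 8 were higher and 1 lower in Smad4 KO, against 16.9 and 13.4% of all genes. Clcn3, Clcn4, Clcn5, Clca1 and Clca4b were all among the 8, and the call of Clca1 was lost on leaving out any library. Cftr, the apical chloride channel that secretion relies on, gave no call at either step, at 184 and 239.5 CPM in WT, then 206 and 158 in Smad4 KO, then 170.5 and 165 with TGF-β, with the WT libraries wide apart. Ano1, a calcium-activated chloride channel, rose at both steps, at 9.32 and 9.01 CPM in WT, then 56.1 and 50.5 in Smad4 KO, then 299 and 280.1 with TGF-β. Its steps were 5.81-fold (log2 2.54 ± 0.08, edgeR adjusted p = 4.62e-06) and 5.44-fold (log2 2.44 ± 0.07, edgeR adjusted p = 1.62e-05). Kcnq1, the basolateral potassium channel that sustains chloride secretion, was the one that fell, 1.33-fold (log2 -0.42 ± 0.05, edgeR adjusted p = 0.00107). Some kinases that switch the Slc12 cotransporters were lower: Wnk2 fell 2.08-fold in Smad4 KO (edgeR adjusted p = 4.49e-05) and Stk39 (SPAK) fell 1.89-fold (edgeR adjusted p = 0.000153). The related Oxsr1, Wnk1 and Wnk4 did not pass.

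In Smad4 KO, 16.9% of all genes were higher and 13.4% lower. Besides Slc4a4, 7 Slc4 carriers were tested there. Of these, 4 were higher, counting Slc4a11, whose call was lost on leaving out any library, and 3 did not pass. Of the latter, Slc4a8, a sodium-driven chloride-bicarbonate exchanger, was near the limit of detection, at 1.97 and 1.19 CPM in WT, then 0.66 and 0.3 in Smad4 KO, then 1.04 and 1.8 with TGF-β (log2 -1.71 ± 0.60 in Smad4 KO), and only DESeq2 called it there among the settings tried with all libraries. Slc4a7 (NBCn1), an electroneutral sodium-bicarbonate cotransporter, stood at 165 and 149.5 CPM in WT, then 244 and 233 in Smad4 KO, then 271 and 258 with TGF-β, a 1.52-fold rise (log2 0.60 ± 0.06, edgeR adjusted p = 0.000791) with no call for TGF-β. Slc4a2 (AE2), a basolateral chloride-bicarbonate exchanger, rose 1.28-fold (log2 0.36 ± 0.05, edgeR adjusted p = 0.00339), with 13.7% of its exon bases shared with Fastk on the other strand. Slc4a5 (NBCe2) rose and fell back, at 16.1 and 19.4 CPM in WT, then 37.1 and 36.9 in Smad4 KO, then 20.9 and 24.4 with TGF-β. Its rise was 2.09-fold (log2 1.06 ± 0.13, edgeR adjusted p = 0.00147) and its fall 1.63-fold (log2 -0.71 ± 0.13, edgeR adjusted p = 0.0124). The fall was lost without either Smad4 KO library or treated replicate 1 (edgeR adjusted p up to 0.0725). Slc4a3 was called against WT in the treated group, from 0.48 and 1.44 CPM to 2.78 and 3.72 CPM (edgeR adjusted p = 0.0424). That call was lost on leaving out any library but WT replicate 2 (edgeR adjusted p up to 0.161).

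Slc4a11 (ENSMUSG00000074796, chr2:130684113-130697519, minus strand), a proton and water transporting member of the family known for its place in the corneal endothelium, gave the steepest called step with TGF-β among the carriers. It stood at 1.7 and 2.14 CPM in WT, then 2.67 and 3.2 in Smad4 KO, then 23.3 and 25.2 with TGF-β. The treated libraries lay far above all others, 8.26-fold above Smad4 KO (log2 3.05 ± 0.19, edgeR adjusted p = 0.00017) and 12.6-fold above WT (log2 3.66 ± 0.19, edgeR adjusted p = 2.86e-05). The step with TGF-β passed in all fits without 1 library (edgeR adjusted p 0.000485 to 0.00265). The small difference between Smad4 KO and WT (edgeR adjusted p = 0.0495) was lost on leaving out any library (0.0533 to 0.19). Carbonic anhydrases, the enzymes that make bicarbonate, were mixed, with 3 higher and 2 lower of 11 tested in Smad4 KO, against 16.9 and 13.4% of all genes. Car2 (log2 fold changes 0.78 and 0.66) and Car13 (0.65 and 0.37) were higher at both steps, and Car9 was lower at both (-0.19 and -0.55). Of these 6 steps, the second of Car2 and of Car13 and the first of Car9 were lost in 2, 3 and 5 of the 6 fits without 1 library.

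A phosphate carrier gave the steepest called rise in Smad4 KO. Slc34a2 (NaPi-IIb; ENSMUSG00000029188, chr5:53038081-53071664, plus strand), the sodium-phosphate cotransporter of the small-intestinal brush border, went from near the limit of detection to a clear level, at 1.53 and 2.01 CPM in WT, then 34.3 and 40.3 in Smad4 KO, then 49.2 and 55.8 with TGF-β. The rise was 21.2-fold (log2 4.40 ± 0.17, edgeR adjusted p = 1.3e-05) and passed in all fits without 1 library (edgeR adjusted p 8.71e-05 to 0.000267). With TGF-β it was 1.41-fold higher again, which did not pass (log2 0.49 ± 0.14, edgeR adjusted p = 0.064) although the libraries did not overlap. DESeq2, the replicate block and 4 other settings did call it. Slc20a1 (PiT-1), the ubiquitous sodium-phosphate cotransporter, stood at 56.4 and 66 CPM in WT, then 146 and 128 in Smad4 KO, then 122 and 120.4 with TGF-β, 2.23-fold higher in Smad4 KO (log2 1.16 ± 0.10, edgeR adjusted p = 0.00032) with no call for TGF-β. Its close relative Slc20a2 (PiT-2) lay between 58.7 and 66.7 CPM in all 6 libraries and passed in no comparison.

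The 250 bases before the RefSeq start of Slc34a2 are shown because this carrier had the steepest rise and because the series names Yap, a coactivator that works through TEAD factors. They come from RefSeq (GRCm38.p6, chr5:53049103-53049352, plus strand), and the capitals mark the TEAD motif GGAATG, whose first base lies 92 bases before the start. This start lies inside the GENCODE bounds of the gene given above, downstream of their first base.

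Slc34a2 promoter: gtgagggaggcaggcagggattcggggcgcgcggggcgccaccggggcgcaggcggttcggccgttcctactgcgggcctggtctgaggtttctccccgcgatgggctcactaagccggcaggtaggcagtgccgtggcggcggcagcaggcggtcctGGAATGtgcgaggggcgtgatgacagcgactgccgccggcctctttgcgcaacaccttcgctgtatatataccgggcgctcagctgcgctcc

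Both strands were searched over windows of 250 bases before to 50 after a start. The motif GGAATG stood in 14.7% of 32851 windows and in 13.9% of the 79 windows of the 63 carriers that had one. The SMAD motif CAGACA stood in 21.0% of all windows and 16.5% of those of the carriers, and the SMAD palindrome GTCTAGAC in 0.2% of all windows and in none of theirs. A match is a description of the letters and shows no binding.

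Magnesium carriers of the Slc41 family moved apart. Slc41a1, described as a sodium-magnesium exchanger of the plasma membrane, stood at 74.6 and 67.2 CPM in WT, then 35.4 and 35.2 in Smad4 KO, then 33.8 and 30.5 with TGF-β, a 2.01-fold fall in Smad4 KO (log2 -1.01 ± 0.09, edgeR adjusted p = 0.000394) with no call for TGF-β. Slc41a2 (ENSMUSG00000034591, chr10:83230848-83337882, minus strand), a related magnesium carrier, stood at 13.4 and 14.8 CPM in WT, then 49.4 and 54.5 in Smad4 KO, then 22.5 and 25.1 with TGF-β. Smad4 KO libraries were highest. The rise was 3.69-fold (log2 1.88 ± 0.11, edgeR adjusted p = 7e-05) and the fall with TGF-β 2.18-fold (log2 -1.13 ± 0.11, edgeR adjusted p = 0.00102), which left it 1.69-fold above WT. In the list of 14 genes of calcium and magnesium handling, 10 were tested, and 5 were higher and none lower in Smad4 KO, against 16.9 and 13.4% of all genes. Trpm6, the apical magnesium channel, stood at 0.46 and 0.68 CPM in WT, then 13.9 and 13.6 in Smad4 KO, then 26.7 and 28 with TGF-β, a 24.2-fold rise in Smad4 KO (log2 4.60 ± 0.20, edgeR adjusted p = 1.85e-05). Cnnm4, a basolateral magnesium exporter, rose 2.03-fold (log2 1.02 ± 0.05, edgeR adjusted p = 3.46e-05). S100g, the calcium-binding protein calbindin-D9k of absorbing cells, rose 3.23-fold (log2 1.69 ± 0.09, edgeR adjusted p = 3.61e-05).

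Calcium exchangers were scarce. Of the 8 Slc8 and Slc24 genes, 3 were tested and none passed, and their levels summed to between 2.1 and 5.34 CPM per library. Slc8a1 (NCX1) ranged from 0.82 to 3.33 CPM, with WT replicates at 1.22 and 3.33 CPM that enclosed both Smad4 KO values. Slc24a5 shares 39.5% of its exon bases with Myef2 on the other strand. The gut calcium channel gene Trpv6 was at 0 in all libraries.

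Iron carriers moved in opposite directions in Smad4 KO and in the same direction with TGF-β. Slc11a2 (DMT1; ENSMUSG00000023030, chr15:100387898-100425072, minus strand), the proton-coupled importer of ferrous iron, stood at 674 and 667 CPM in WT, then 452 and 449 in Smad4 KO, then 238 and 223 with TGF-β. No libraries of different groups overlapped. It fell 1.49-fold in Smad4 KO (log2 -0.57 ± 0.04, edgeR adjusted p = 0.000138) and 1.96-fold more with TGF-β (log2 -0.97 ± 0.04, edgeR adjusted p = 4.23e-05), to 2.91-fold below WT (edgeR adjusted p = 1.86e-06). Slc40a1 (ferroportin; ENSMUSG00000025993, chr1:45908068-45926523, minus strand), the cell's iron exporter, stood at 97 and 95.5 CPM in WT, then 176 and 157 in Smad4 KO, then 116 and 117 with TGF-β. It rose 1.73-fold in Smad4 KO (log2 0.79 ± 0.06, edgeR adjusted p = 0.000308) and fell 1.43-fold with TGF-β (log2 -0.52 ± 0.06, edgeR adjusted p = 0.00314). Its remaining difference from WT in the treated group (1.21-fold, edgeR adjusted p = 0.0164) was lost without any one of the WT or treated libraries (edgeR adjusted p up to 0.0727).

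Several of these iron genes carry an iron-responsive element, a hairpin in the RNA that binds iron regulatory proteins when iron is scarce. In the 3′ untranslated region the binding protects the RNA from decay, and in the 5′ untranslated region it blocks translation and leaves RNA counts largely untouched. The elements of 5 genes of iron handling, picked after their values were seen, are shown because counts of these genes are given here. They were found in GENCODE vM21 transcripts of GRCm38 as an unpaired C, then 5 bases, the loop CAGTGN and 5 bases that pair with the first 5. Up to 1 unpaired base was allowed on the 3′ side, and the search was chosen after the values were seen. Capitals mark the 6-base loop, and T stands for U.

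Slc11a2, 3′ UTR, chr15:100395153-100395180, minus strand: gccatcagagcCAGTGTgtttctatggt
Tfrc, 3′ UTR, chr16:32631711-32631737, plus strand, 1 of 4 found: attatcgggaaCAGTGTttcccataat
Slc40a1, 5′ UTR, chr1:45925466-45925492, minus strand: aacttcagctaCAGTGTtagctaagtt
Fth1, 5′ UTR, chr19:9982733-9982759, plus strand: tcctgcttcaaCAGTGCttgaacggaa
Ftl1, 5′ UTR, chr7:45459780-45459806, minus strand: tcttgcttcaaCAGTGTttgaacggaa

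This shape stood in an untranslated region of 383 of 21901 genes (1.75%) and of 2 carriers, Slc11a2 and Slc40a1. Over all genes with it in the 5′ region, 12 of 56 tested genes were higher and 8 lower in Smad4 KO. With it in the 3′ region 62 of 255 were higher and 28 lower, against 16.9 and 13.4% of all genes. With TGF-β, 3 of the 56 were higher and 8 lower. Of the 255, 27 were higher and 25 lower, against 7.78 and 8.48% of all genes. No test compared these shares. The shape was annotated on 1 of 6 coding transcripts of Slc11a2 and 1 of 4 of Slc40a1. Counts per gene do not tell the transcripts apart. Tfrc, the transferrin receptor that brings in iron from the blood side, carries the element in the 3′ region like Slc11a2, and stood at 556 and 553 CPM in WT, then 462 and 463 in Smad4 KO, then 293 and 289.5 with TGF-β. It fell at both steps, 1.2-fold (log2 -0.26 ± 0.03, edgeR adjusted p = 0.00102) and 1.59-fold (log2 -0.67 ± 0.03, edgeR adjusted p = 5.43e-05). The ferritin subunits, which store iron and carry the element in the 5′ region, were higher in Smad4 KO. Fth1 stood at 986 and 988 CPM in WT, then 2046 and 2009 in Smad4 KO, then 1674 and 1683 with TGF-β, a 2.05-fold rise (log2 1.04 ± 0.02, edgeR adjusted p = 5.59e-07) and a 1.21-fold fall with TGF-β (log2 -0.27 ± 0.02, edgeR adjusted p = 0.000222). Ftl1 rose 1.91-fold (log2 0.93 ± 0.13, edgeR adjusted p = 0.00299), and its treated libraries lay apart, at 1325 and 1818 CPM. Iron itself and the binding of the regulatory proteins were not measured.

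Within the full list of 21 iron-handling genes, 20 were tested, with 6 higher and 4 lower in Smad4 KO (16.9 and 13.4% of all genes) and 2 higher and 4 lower with TGF-β (7.78 and 8.48%). Heph, the oxidase that works with Slc40a1 at the basolateral side, stood at 85.1 and 89.3 CPM in WT, then 169 and 160.5 in Smad4 KO, then 184 and 189 with TGF-β, a 1.89-fold rise in Smad4 KO (log2 0.92 ± 0.05, edgeR adjusted p = 8.04e-05). Cybrd1 (Dcytb), the reductase that prepares iron for Slc11a2, fell 1.34-fold in Smad4 KO (log2 -0.42 ± 0.04, edgeR adjusted p = 0.000779) and rose 1.26-fold with TGF-β (log2 0.34 ± 0.04, edgeR adjusted p = 0.00359), so it did not follow Slc11a2 in the second step. Hamp, which encodes the hormone hepcidin, was at 0 in all libraries.

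**Figure D4:**
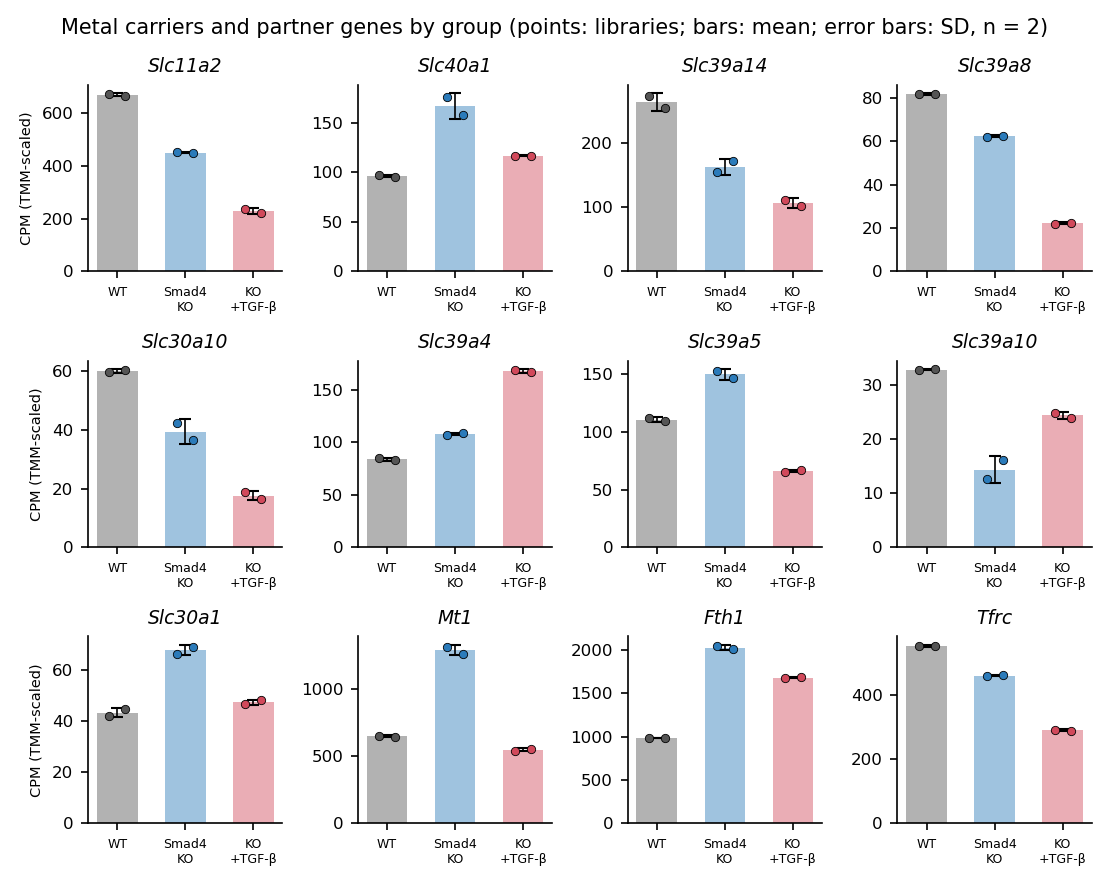
TMM-scaled CPM (linear axis from 0, scaled per panel) of 9 metal carriers and of the partner genes Mt1, Fth1 and Tfrc, with points for the 2 libraries, bars for the mean and error bars for the SD. Slc11a2, Slc39a14, Slc39a8, Slc30a10 and Tfrc step down from WT to Smad4 KO to treated Smad4 KO, Slc40a1, Slc39a5, Slc30a1, Mt1 and Fth1 stand highest in Smad4 KO, and Slc39a4 steps up.

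Of 13 tested zinc importers of the Slc39 family, 3 were higher and 3 lower in Smad4 KO, where 16.9 and 13.4% of all genes were, and 3 were higher and 3 lower with TGF-β, against 7.78 and 8.48%. Slc39a4 (ZIP4; ENSMUSG00000063354, chr15:76612383-76617384, minus strand), the apical zinc importer whose loss in humans causes acrodermatitis enteropathica, stood at 84.7 and 82.8 CPM in WT, then 107 and 109 in Smad4 KO, then 169 and 167 with TGF-β. It rose at each step, 1.29-fold (log2 0.37 ± 0.05, edgeR adjusted p = 0.00222) and 1.55-fold (log2 0.64 ± 0.05, edgeR adjusted p = 0.000418), with no overlap between groups. Slc39a5 (ZIP5), found at the basolateral side of enterocytes, took another course, at 112 and 109 CPM in WT, then 153 and 147 in Smad4 KO, then 65.7 and 66.9 with TGF-β. It rose 1.35-fold in Smad4 KO (log2 0.44 ± 0.05, edgeR adjusted p = 0.00146) and fell 2.26-fold with TGF-β (log2 -1.18 ± 0.05, edgeR adjusted p = 6.29e-05). The treated libraries lay 1.67-fold below WT (edgeR adjusted p = 0.000102).

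Slc39a14 (ZIP14) and Slc39a8 (ZIP8), which carry manganese and iron as well as zinc, fell at both steps. Slc39a8 stood at 82.1 and 81.7 CPM in WT, then 62 and 62.6 in Smad4 KO, then 21.8 and 22.4 with TGF-β. The first fall was 1.31-fold (log2 -0.39 ± 0.06, edgeR adjusted p = 0.00432) and the second 2.82-fold (log2 -1.49 ± 0.06, edgeR adjusted p = 4.79e-05), among the carriers the lowest called log2 fold change with TGF-β. Slc39a14 stood at 273 and 254 CPM in WT, then 154 and 171 in Smad4 KO, then 112 and 101 with TGF-β, with falls of 1.62-fold (log2 -0.70 ± 0.08, edgeR adjusted p = 0.00106) and 1.53-fold (log2 -0.61 ± 0.08, edgeR adjusted p = 0.0033). Slc30a10 (ENSMUSG00000026614, chr1:185454848-185468762, plus strand), which despite its family exports manganese, fell too, at 59.7 and 60.5 CPM in WT, then 42.5 and 36.5 in Smad4 KO, then 18.8 and 16.5 with TGF-β. Its falls were 1.52-fold (log2 -0.61 ± 0.11, edgeR adjusted p = 0.00684) and 2.24-fold (log2 -1.16 ± 0.11, edgeR adjusted p = 0.000965), with 9.1% of its exon bases shared with an opposite-strand transcript. The 6 carriers lower in all 3 comparisons were Slc4a4, Slc11a2, Slc30a2, Slc30a10, Slc39a8 and Slc39a14. In the list of 10 genes of copper and manganese handling, 3 were higher and none lower in Smad4 KO (16.9 and 13.4% of all genes). With TGF-β, 1 was higher and 2 lower (7.78 and 8.48% of all genes). Atp2c1, a Golgi pump for calcium and manganese, rose at both steps, 1.43-fold (log2 0.52 ± 0.07, edgeR adjusted p = 0.00309) and 1.64-fold (log2 0.71 ± 0.07, edgeR adjusted p = 0.00149).

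Slc39a10 (ZIP10), a plasma-membrane zinc importer, was the 1 carrier that fell and then rose, at 32.8 and 32.9 CPM in WT, then 12.6 and 16.2 in Smad4 KO, then 24.9 and 23.9 with TGF-β. Its fall in Smad4 KO was 2.29-fold (log2 -1.19 ± 0.13, edgeR adjusted p = 0.00113). The rise with TGF-β (log2 0.76 ± 0.13, edgeR adjusted p = 0.0117) was lost without treated replicate 1 (edgeR adjusted p = 0.0624). The difference that remained from WT (log2 -0.43 ± 0.13, edgeR adjusted p = 0.0424) was lost without any one of the WT or treated libraries (edgeR adjusted p 0.121 to 0.157). Slc39a6 (ZIP6), its close relative, stood at 10.7 and 12.1 CPM in WT, then 11.7 and 11.2 in Smad4 KO, then 16.4 and 19.1 with TGF-β. It rose with TGF-β (log2 0.63 ± 0.14, edgeR adjusted p = 0.0258), in a call that was lost without any one of the 4 libraries compared (edgeR adjusted p up to 0.14). Against WT it failed without WT replicate 1 or treated replicate 2 (up to 0.0659). Slc39a9 rose in Smad4 KO from 29.1 and 28.0 CPM to 44.6 and 42.1 CPM (log2 0.60 ± 0.09, edgeR adjusted p = 0.0042). In the main test Slc39a1 passed only against WT in the treated group (log2 0.30 ± 0.05, edgeR adjusted p = 0.00336). In Smad4 KO (edgeR adjusted p = 0.0554) it was called under RLE scaling, DESeq2, the filter of 1 CPM in 2 libraries and values divided by 4. With TGF-β, library totals and DESeq2 called it.

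Slc30a1 (ZnT1; ENSMUSG00000037434, chr1:191906767-191913247, plus strand), the zinc exporter of the plasma membrane, stood at 42.1 and 44.6 CPM in WT, then 66.6 and 69.2 in Smad4 KO, then 46.8 and 48.2 with TGF-β. It rose 1.57-fold in Smad4 KO (log2 0.65 ± 0.07, edgeR adjusted p = 0.000907) and fell 1.43-fold with TGF-β (log2 -0.52 ± 0.07, edgeR adjusted p = 0.00407), to a level that did not pass against WT (log2 fold change 0.13). Metallothioneins, which bind zinc and copper in the cytosol and share with Slc30a1 control by the zinc sensor MTF1, were also highest in Smad4 KO. Mt1 stood at 653 and 642 CPM in WT, then 1314 and 1263 in Smad4 KO, then 540.1 and 555 with TGF-β, a 1.99-fold rise (log2 0.99 ± 0.03, edgeR adjusted p = 4.62e-06) and a 2.35-fold fall (log2 -1.23 ± 0.03, edgeR adjusted p = 7.36e-06). Mt2 rose 1.89-fold (log2 0.92 ± 0.05, edgeR adjusted p = 5.97e-05) and fell 2.52-fold (log2 -1.33 ± 0.05, edgeR adjusted p = 3.59e-05), and the sensor gene Mtf1 did not pass in any comparison. Unlike Slc30a1, both metallothioneins ended below WT in the treated group, Mt1 1.18-fold (log2 -0.24 ± 0.03, edgeR adjusted p = 0.00111) and Mt2 1.34-fold (log2 -0.42 ± 0.05, edgeR adjusted p = 0.00105). Zinc itself was not measured.

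The 250 bases before the RefSeq start of Slc30a1 and of Slc30a10 are shown because MTF1 acts through metal response elements and these exporters moved differently. Both sequences come from RefSeq (GRCm38.p6, plus strand, chr1:191906531-191906780 and chr1:185454598-185454847). The start of Slc30a1 used here lies a few bases inside the GENCODE bounds given above. Capitals mark TGCACNC or TGCGCNC on either strand. The match printed for Slc30a1 begins 43 bases before the start, on the minus strand. A second match in its searched window, also on the minus strand, begins 30 bases after the start and so is not printed. Those in Slc30a10 begin 233, 232 and 73 bases before the start, the first 2 overlapping on opposite strands.

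Slc30a1 promoter: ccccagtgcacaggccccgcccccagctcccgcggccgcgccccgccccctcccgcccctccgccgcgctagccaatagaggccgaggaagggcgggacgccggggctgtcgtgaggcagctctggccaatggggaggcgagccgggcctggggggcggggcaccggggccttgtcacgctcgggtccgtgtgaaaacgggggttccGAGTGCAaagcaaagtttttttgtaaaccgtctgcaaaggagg
Slc30a10 promoter: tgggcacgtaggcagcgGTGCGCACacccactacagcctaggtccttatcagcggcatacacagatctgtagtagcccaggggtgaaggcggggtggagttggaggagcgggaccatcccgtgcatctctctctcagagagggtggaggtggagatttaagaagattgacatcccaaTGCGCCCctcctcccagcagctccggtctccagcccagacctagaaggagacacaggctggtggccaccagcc

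One form or the other stood in 25.7% of all 32851 windows and in 31 of the 79 windows of carriers (39.2%), which describes letters and not sites that are bound.

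Other carriers of the Slc30 family moved in both directions in Smad4 KO. Slc30a2 (ZnT2), which in mice fills the granules of Paneth cells with zinc, stood at 14.3 and 14.9 CPM in WT, then 5.22 and 5.67 in Smad4 KO, then 3.03 and 3.81 with TGF-β. Its fall in Smad4 KO was 2.68-fold (log2 -1.42 ± 0.17, edgeR adjusted p = 0.00153), where 7 of 7 Paneth markers fell. A further difference with TGF-β (log2 -0.67 ± 0.18, edgeR adjusted p = 0.0488) was lost on leaving out any library (edgeR adjusted p 0.0627 to 0.197) and under 6 of 8 other settings. Slc30a4 rose 1.38-fold in Smad4 KO (log2 0.47 ± 0.05, edgeR adjusted p = 0.00102). Slc30a5, which works in the early secretory pathway, was 1.15-fold higher (log2 0.21 ± 0.06, edgeR adjusted p = 0.0425), a call lost on leaving out any library (edgeR adjusted p 0.0586 to 0.179), and its partner Slc30a7 did not pass.

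Set side by side, the steps show different courses. Of the 24 carriers higher in Smad4 KO, 7 fell with TGF-β (Slc4a5, Slc26a3, Slc26a6, Slc30a1, Slc39a5, Slc40a1 and Slc41a2), 5 rose again (among them Slc4a11, Slc26a2 and Slc39a4) and 12 did not pass. Of the 9 lower in Smad4 KO, 6 fell again, 1 rose and 2 did not pass. Over all genes tested, 7.78% were higher and 8.48% lower with TGF-β. The shares among genes already called in Smad4 KO were not worked out. Some calls counted here were lost without 1 library, as given above. Among them were the first of Slc4a11, Slc26a10 and Slc30a5 and the second of Slc4a5, Slc30a2 and Slc39a10. These counts are a description only, because both steps use the Smad4 KO libraries and a chance high or low value there would move them in opposite directions.

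**Figure D5:**
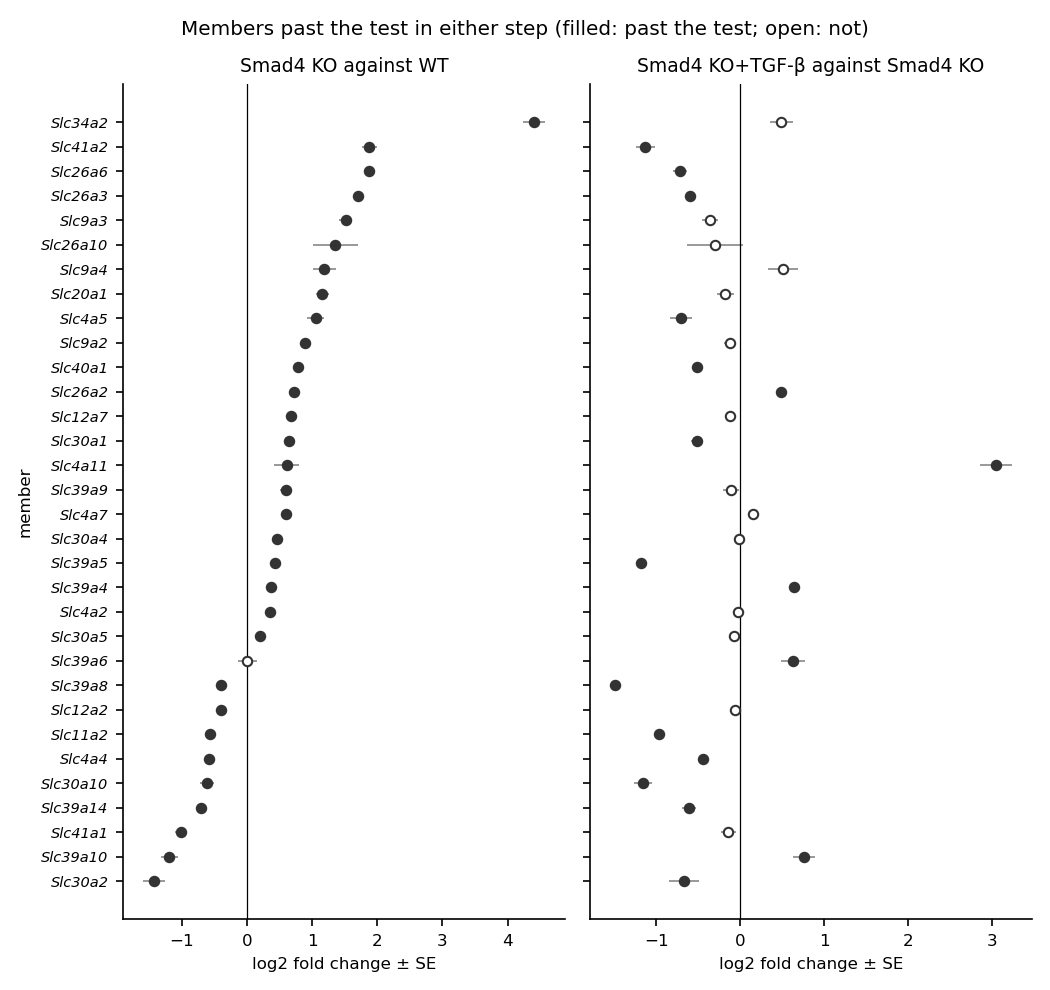
Log2 fold change with its SE for 32 carriers past the test in either step, ordered by Smad4 KO against WT (left) and shown for TGF-β-treated against untreated Smad4 KO (right); filled points passed and open points did not. Slc34a2 stands far to the right at 4.40 in the left panel and Slc4a11 at 3.05 in the right panel, and Slc41a2, Slc26a6 and Slc26a3 lie right of 0 on the left and left of 0 on the right.

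Of the 67 carriers tested, 28 passed in no comparison, and 11 of these had a group mean of at least 10 CPM, among them Slc9a5, Slc12a8, Slc12a9, Slc20a2, Slc30a6, Slc30a7, Slc30a9, Slc39a3, Slc39a7 and Slc39a11. Their log2 fold changes lay between -0.38 and 0.39 in all 3 comparisons. DESeq2 called Slc12a9 and Slc30a6 in Smad4 KO and Slc12a8 with TGF-β, and Slc30a6 was also called with a filter of 1 CPM in 2 libraries and with values divided by 4. Slc39a11 was among the steadiest of them, at 95.3 to 105 CPM in all 6 libraries. The other 17 had group means of at most 9.12 CPM. Over all tested carriers under 10 CPM in every group, the SE of the log2 fold change in Smad4 KO was 0.7 in the median and ranged from 0.16 to 2.25, against 0.08 (0.03 to 0.2) for the others. A call that was missed does not show that a gene was equal between groups.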

How the data were processed

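Bulk RNA-seq was done on 6 libraries of mouse intestinal organoids, grouped by their titles. The authors deposited whole-number estimated counts for each Ensembl gene, so none was rounded. The submitters' processing notes name StringTie 1.3.3b, HISAT2 2.1.0, SAMtools 1.9 and FastQC 0.11.9, with build GRCm38 (mm10). Annotation release, strand setting and rounding are not given in the notes, so overlapping genes may share counts. Multiples of 4 made up 42.3% of values between 1 and 24 (25% if even), from which about 4 units per fragment, or 10.1 to 12.7 M fragments per library, were inferred. Replicates correlated at 0.9705 to 0.9757 across genes and differed by more than sampling noise (chi-square per degree of freedom 5.17 to 6.15).

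Counts were filtered with filterByExpr and scaled by TMM in edgeR 4.0.16 (R 4.3.3). A quasi-likelihood model (glmQLFit, glmQLFTest, 2-sided) was fitted to all 6 libraries and 15503 genes with the group as the only term, leaving 3 residual degrees of freedom, with Benjamini-Hochberg adjustment over all genes. CPM are TMM-scaled counts per 1000000, SDs are over 2 libraries, and positions are from GENCODE vM21 (GRCm38). The test was checked on simulated data. The carriers, lists and tests were chosen with earlier results of these data known. Carriers named were a fixed set of intestinal ones, the 8 highest and 8 lowest log2 fold changes past the test in each comparison (at least 1 CPM and no overlap), and those with printed sequences; other carriers and the genes of partner lists were named after their values were seen. Alternatives were RLE scaling, library totals, DESeq2 1.42.0, 2 other filters, a replicate block, values divided by 4, fits to 2 groups and leaving out each library. Protein sequences were not used here, and the values of some genes are not reported here or drawn, although all tested genes enter the counts.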

Additional observations from a re-analysis of the deposited data

How the results depend on the processing

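No called carrier changed direction under any alternative. Scaling by library totals without TMM moved the median log2 fold change of all genes in Smad4 KO against WT to -0.114, and changes there are relative to it. Calls over all genes went from 2620 higher and 2084 lower to 2125 and 2926. DESeq2 kept all 33, 20 and 36 calls and added 4 (Slc4a8, Slc12a9, Slc30a6 and Slc39a1), 5 (Slc9a3, Slc12a8, Slc26a9, Slc34a2 and Slc39a1) and 1 (Slc4a5). Same-numbered replicates of different groups did not deviate together (correlations 0.001, 0.014 and 0.012), so the numbers pair nothing; the replicate block lost 2 of 33 calls (Slc26a10 and Slc30a5), 1 of 20 (Slc30a2, while adding Slc34a2) and 2 of 36 (Slc26a10 and Slc39a10).

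Leaving out 1 library at a time moved some counts by over 1.5 times, and the cause was not tested beyond the smaller number of libraries. In Smad4 KO against WT, all genes lower ranged from 1166 to 1867 (2084 with all libraries). With TGF-β against Smad4 KO, all genes higher ranged from 656 to 1108 (1206), all genes lower from 848 to 1196 (1315), carriers higher from 4 to 7 (7).

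Some log2 fold changes near 0, none of them past the test with all libraries, changed sign when 1 library was left out. In Smad4 KO against WT, Slc20a2 ranged from -0.13 to 0.01, Slc39a6 from -0.07 to 0.11 (-0.08 by library totals), Slc4a3 from -0.04 to 1.54 and Slc8a1 from -1.09 to 0.35. With TGF-β against Smad4 KO, Slc20a2 ranged from -0.01 to 0.11 and Slc30a7 from -0.07 to 0.15, and against WT Slc20a2 ranged from -0.08 to 0.05.

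The counts of partner genes are small and moved more. They include 2 lists not given above. Of 12 pump genes 7 were tested, with 2 higher and 0 lower in Smad4 KO. Of the 8 claudin genes of the paracellular path all 8 were tested, with 4 higher and 0 lower. Over all genes tested 16.9% were higher and 13.4% lower. Cldn2 stood at 379 and 0.39 CPM in WT and at 0.28 and 269 CPM in Smad4 KO, so its replicates disagree. In Smad4 KO against WT, library totals left 1 pump gene higher (2 in the main test), 1 gene of the paracellular path higher (4) and 1 lower (0), and the stricter filter, the replicate block, division by 4 and the 2-group fit each left 1 carbonic anhydrase lower (2). With TGF-β, DESeq2 and no filter gave 2 carbonic anhydrases lower (1) and DESeq2 gave 4 calcium and magnesium genes higher (2), and against WT the 2-group fit gave 2 copper and manganese genes lower (1). Without 1 library, counts in Smad4 KO ranged from 0 to 2 for carbonic anhydrases lower, 2 to 4 for the paracellular path higher and 0 to 1 for it lower. With TGF-β against Smad4 KO they ranged from 1 to 2 for pumps higher, 0 to 4 for carbonic anhydrases higher and 1 to 2 lower, 2 to 4 for scaffolds lower, 1 to 2 for iron genes higher and 2 to 5 lower, 1 to 2 for copper and manganese genes lower, and 1 to 3 for calcium and magnesium genes higher. Against WT they ranged from 1 to 3 for pumps higher, 3 to 4 for scaffolds lower, 0 to 1 for zinc-response genes higher and 1 to 2 for the paracellular path lower. With 2 libraries per group, carriers under 10 CPM had a median SE of 0.7 on the log2 scale in Smad4 KO against WT, and the others 0.08. The searches of protein sequences planned for these families were not run.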
